A study of Mus musculus with 26 samples.

Results

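The Slc2a genes encode the GLUT family of facilitative sugar carriers, and the 10 genes described here are Slc2a1, Slc2a3, Slc2a4, Slc2a5, Slc2a6, Slc2a8, Slc2a9, Slc2a10, Slc2a12 and Slc2a13. They were chosen by gene name, out of 37074 gene names on the array, and every probe that the scanner files assign to them was used. These were 19 probes of the 56605 on the array, of which 13 were among the 40168 probes of the normalized table.

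The arrays measured RNA of inguinal subcutaneous white adipose tissue from male mice on a C57BL6/J background, all given food and a 20% glucose drink for 18 h after a 24 h fast. The carbohydrate-response element-binding protein ChREBP, encoded by Mlxipl, was missing as a whole in the total ChREBP-KO mice (7 arrays), whereas the ChREBPβ-KO mice (5 arrays) carried a germline CRISPR deletion of exon 1b, the first exon of the ChREBPβ isoform. Each line had its own wild-type (WT) mice (7 arrays each), so that no group was unfed or free of the glucose load, and both deletions were present in every cell of the body. Nothing in the labels gives ages or pairs a KO mouse with a WT mouse.

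GLUT proteins move hexoses across membranes along their gradient. Class I holds the glucose carriers Slc2a1 (GLUT1, the basal carrier of most cells), Slc2a3 (GLUT3, a high-affinity carrier of neurons and leukocytes) and Slc2a4 (GLUT4, which insulin brings to the surface of adipocytes and muscle fibres). Class II holds the fructose carrier Slc2a5 (GLUT5) and the urate carrier Slc2a9. Class III holds Slc2a6, Slc2a8, Slc2a10, Slc2a12 and the proton-coupled myo-inositol carrier Slc2a13 (HMIT). ChREBP is a transcription factor that glucose metabolites activate, and in adipocytes GLUT4 is the main route by which that glucose enters.

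The probes on which the main results rest were 60 bases long, and their first 30 bases, read 5′ to 3′, were as follows:

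Slc2a5 probe: aggccatttgcgaagacacactgagcgtgg

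Slc2a4 brighter probe: gttttgaagaacggatagggagcagaaacc

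Slc2a13 probe: ctagcctctgctgtatctaaagtatggtct

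Slc2a12 dimmer probe: tggaaccttctattgttctcttatcaccaa

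Slc2a12 brighter probe: ggtaaatcctcacggttttaaagccgtcta

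In the mm9 build that the scanner files use, the Slc2a5 probe lay on chromosome 4 from 149517775 to 149517834 on the plus strand. The Slc2a4 probe lay on chromosome 11 from 69756073 to 69756132 on the minus strand, and the Slc2a13 probe on chromosome 15 from 91098249 to 91098308 on the minus strand. The dimmer Slc2a12 probe lay on chromosome 10 from 22423536 to 22423595 and the brighter Slc2a12 probe from 22424022 to 22424081, both on the plus strand and 426 bases apart. No mm9 gene annotation was used here, so exon and UTR positions are not given.

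Each of the 10 genes had at least 1 probe in the table. By the scanner's own call, 12 of these 13 probes were well above background on all 26 arrays. The exception was Slc2a5, which was well above background on 21 of 26 arrays, all the missing calls being in the total ChREBP-KO group. The 6 probes outside the table belonged to Slc2a3, Slc2a6, Slc2a9, Slc2a12 and Slc2a13 and were well above background on at most 3 arrays each. None of the Slc2a spots was saturated. The scanner's separate call of a spot as found was less complete for some probes that were well above background throughout. The Slc2a3 probe of the table was found on 4 of 7 total-line WT and 5 of 7 total-KO arrays. In the ChREBPβ line it was found on 6 of 7 WT and 5 of 5 KO arrays.

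Among the 10 genes, represented by their brightest probe, 6 passed an adjusted p of 0.05 in the total ChREBP KO (limma, Benjamini-Hochberg over all 40168 probes). Slc2a13 and Slc2a10 rose, against 25.7% of all 26154 genes called higher in this comparison. Slc2a5, Slc2a4, Slc2a6 and the brighter probe of Slc2a12 fell, against 20.2% of all genes called lower. Ranges of KO and WT were apart for 4 of the 10 genes, against 14.6% of all genes. The median log2 fold change was 0.07 over the 10 genes and 0.05 over all genes, with members of the family moving in both directions.

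In the ChREBPβ KO, 0 of the 10 genes passed the same test, with 0.00765% of all genes called higher and 0.0421% called lower. Slc2a4, Slc2a5 and Slc2a10, 3 of the 10, had an unadjusted p under 0.05, against 7.71% of all genes. Slc2a4 was the only gene of the family with KO and WT ranges apart, a pattern held by 0.356% of all genes. The plot of effects sets both knockouts side by side.

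**Figure D1:**
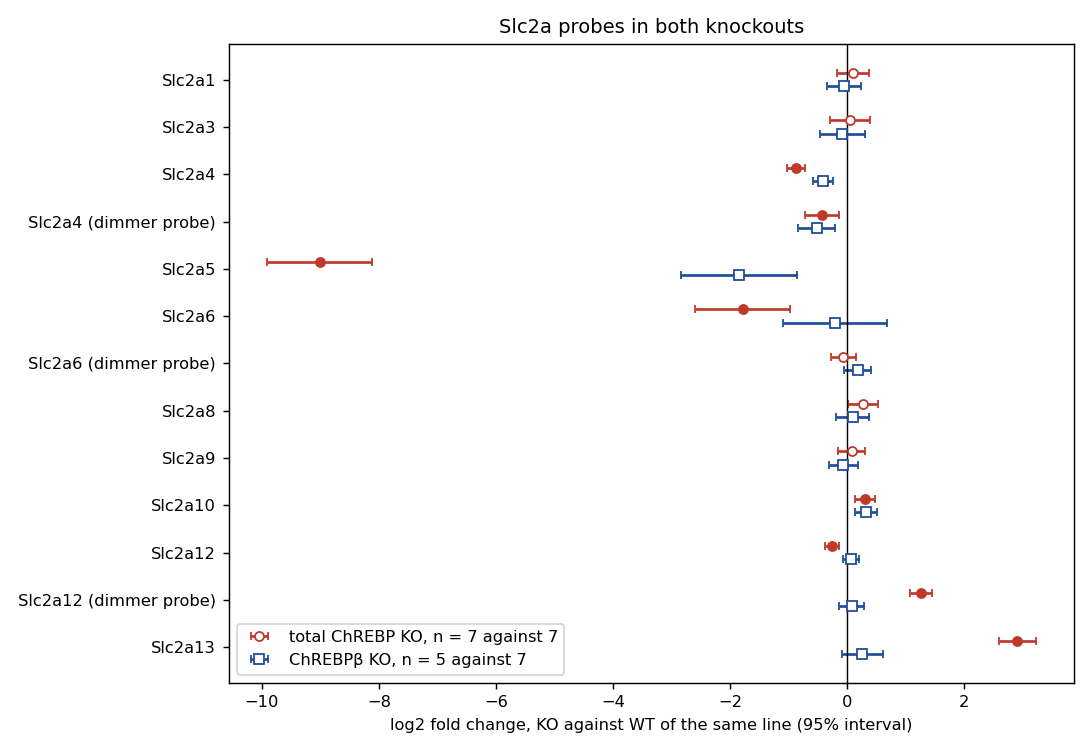
Log2 fold change of KO against the WT of its own line (x axis) for the 13 Slc2a probes of the table (y axis), with 95% intervals from the limma fit. Red circles stand for the total ChREBP KO and blue squares for the ChREBPβ KO, and filled symbols passed an adjusted p of 0.05. Slc2a5 reaches -9.01 in the total KO and -1.84 in the ChREBPβ KO, and no symbol of the ChREBPβ KO is filled.

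Slc2a5, the fructose carrier, had the largest change of the family. Its normalized log2 level in the WT mice of the total line was 13.85 at the lowest, 14.09 at the median and 14.33 at the highest. In the total ChREBP-KO mice the level was 4.22 at the lowest, 4.60 at the median and 7.91 at the highest, so every KO array lay far below every WT array.

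Of these 7 KO arrays, 2 were well above background, replicate 2 at a log2 level of 5.50 and replicate 8 at 7.91. The median pixel signal of the Slc2a5 spot was 235 on KO replicate 8 and between 17.0 and 46.0 on the other 6 KO arrays, over a local background of 17.0 to 23.0. On the WT arrays of the same line it was between 13075 and 17935. The fitted log2 fold change was -9.01 ± 0.43 (SE, n = 7 and 7, limma adjusted p = 4.74e-14), a size that depends on how arrays close to background are scaled. It ranged from -10.01 to -8.04 within the 4 wash batches that the labels give.

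In the ChREBPβ line, Slc2a5 stayed well above background on all 12 arrays. The WT levels were 12.54 at the lowest, 13.21 at the median and 14.0 at the highest. The ChREBPβ-KO levels were 12.45, 10.47, 12.64, 11.31 and 10.55 in replicates 1, 2, 4, 5 and 6. Replicates 1 and 4 lay close to the lowest WT array, and replicate 4 lay above it.

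The mean log2 level was 11.48 ± 1.02 (SD, n = 5) in the ChREBPβ-KO mice and 13.32 ± 0.55 (SD, n = 7) in their WT littermates. The log2 fold change of Slc2a5 was -1.84 ± 0.48 (SE), which is 27.9% of WT, and did not pass the adjusted threshold (limma unadjusted p = 0.000681, adjusted p = 0.26). The adjusted p was 0.45 when only the arrays of the ChREBPβ line were fitted and 0.0428 with arrays weighted by quality. It ranged from 0.0259, without replicate 8 of the total ChREBP KO, to 0.699 when each of the 26 arrays was left out in turn. An exact two-sided permutation test of the 12 arrays of the ChREBPβ line alone, added after the data were seen, gave an unadjusted p of 0.00505. The difference was -2.47, -1.39 and -2.23 in the 3 wash batches that held both genotypes.

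Both knockouts therefore had lower mean Slc2a5 levels, by unequal amounts. The ChREBPβ effect minus the total effect was 7.17 ± 0.64 (SE) on the log2 scale (limma adjusted p = 2.49e-08), and 4 of the 10 genes passed this test of the difference. These were Slc2a5, Slc2a4 and Slc2a12 with a positive difference, against 10.2% of all genes, and Slc2a13 with a negative one, against 13.0% of all genes.

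**Figure D2:**
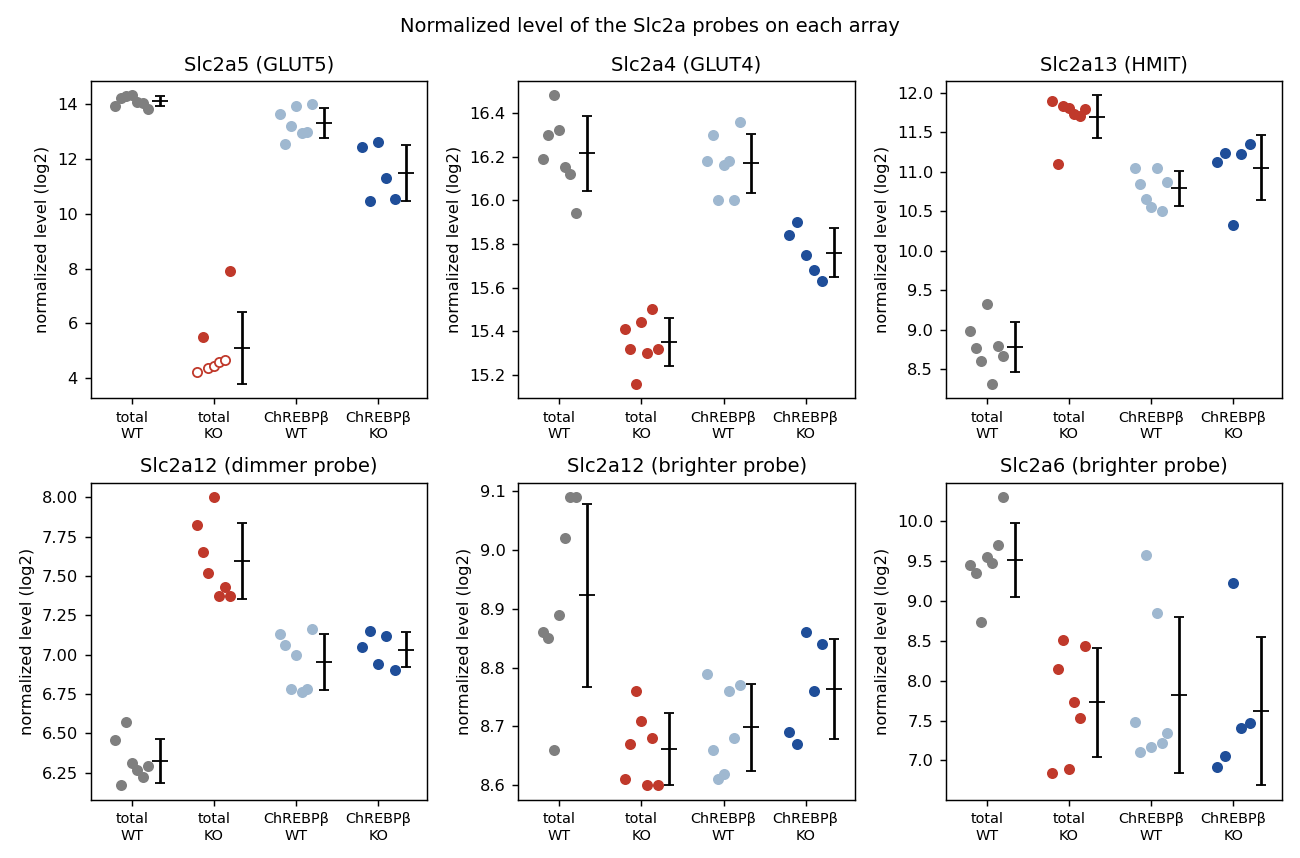
Normalized log2 level (y axis, a different range in each panel) of 6 Slc2a probes on each of the 26 arrays, by group (x axis). Points are arrays, open points were not well above background, and the bars beside them give the mean and SD. Slc2a5 falls to 4.22 to 7.91 in the total KO, Slc2a4 is lower in each KO than in its WT, and both Slc2a12 probes move in opposite directions in the total KO.

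Slc2a4, the insulin-responsive glucose carrier, was lower in both knockouts. With its brighter probe, the log2 level in the total line was 15.94 at the lowest, 16.19 at the median and 16.48 at the highest in WT, and 15.16, 15.32 and 15.50 in the KO. No KO array reached the lowest WT array. Expression fell by 0.87 ± 0.08 on the log2 scale (SE, limma adjusted p = 1.75e-09), to 54.9% of WT.

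In the ChREBPβ line the WT levels of Slc2a4 were 16.00 at the lowest, 16.18 at the median and 16.36 at the highest. The ChREBPβ-KO levels were 15.84, 15.90, 15.75, 15.68 and 15.63 in replicates 1, 2, 4, 5 and 6, all below every WT array. Expression was 75.3% of WT, a log2 fold change of -0.41 (SE 0.08), at a limma adjusted p of 0.0622 and an unadjusted p of 4.03e-05. It therefore narrowly missed the threshold over all probes, although an exact permutation test within the line, added after the data were seen, gave 0.00253, the smallest p these 12 arrays allow.

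The Slc2a4 call in the ChREBPβ KO turned on the arrays used: the adjusted p was 0.0281 without replicate 4 and 0.0398 without replicate 8 of the total-line WT, 0.0316 without replicate 7 of the ChREBPβ WT, and 0.0114 with arrays weighted by quality. Over all 26 arrays left out in turn it ranged from 0.0281 to 0.331. The KO difference was -0.29, -0.31 and -0.56 in the 3 wash batches with both genotypes. The total-KO difference was between -1.19 and -0.63 in the 4 batches.

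The ChREBPβ effect on Slc2a4 was smaller than the total effect by 0.46 ± 0.11 (SE, limma adjusted p = 0.00499), or adjusted p = 0.208 with each slide as a fixed block. WT mice of both lines had nearly the same Slc2a4 level, with a log2 difference of -0.05 and a 95% interval of -0.20 to 0.11. A dimmer Slc2a4 probe on chromosome 11, from 69757309 to 69757368, also read lower, by -0.43 ± 0.14 (SE, adjusted p = 0.0136) in the total KO and -0.52 ± 0.15 (SE, adjusted p = 0.305) in the ChREBPβ KO.

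Of 12 adipocyte marker genes 11 were called higher in the total KO, against 25.7% of all genes. Their median log2 fold change was 0.52, and all were well above background on every array. Between the WT groups, 8 of the 12 were called higher in the ChREBPβ line, against 26.1% of all genes, with a median of 0.49. The mean level of the 12 was 15.56 to 16.02 in the total-line WT and 16.45 to 16.60 in the total KO. It was 16.19 to 16.38 in the ChREBPβ WT and 16.12 to 16.53 in the ChREBPβ KO. Thermogenic adipocytes also carry Slc2a4. Of 7 of their markers, 1 was called higher and 4 lower in the total KO, against 25.7% and 20.2% of all genes, with a median of -1.57. The mean level of these 7 markers was 11.06 to 13.38 in the total-line WT, 10.43 to 11.28 in the total KO, 9.34 to 11.14 in the ChREBPβ WT and 9.20 to 9.99 in the ChREBPβ KO, and their part in the Slc2a4 values was not tested. In the ChREBPβ KO 0 of the 12 and 0 of the 7 were called, with medians of 0.08 and -0.34. The RNA came from whole tissue, so fewer cells of a type and less RNA per cell cannot be told apart.

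The basal and high-affinity glucose carriers did not pass the test in either knockout. Slc2a1 had a log2 level of 9.93 to 10.97 in the total-line WT and 10.42 to 10.85 in the total KO, and of 9.97 to 10.56 and 9.78 to 10.32 in the ChREBPβ WT and KO. Its log2 fold change was 0.10 in the total KO (95% interval -0.17 to 0.37) and -0.05 in the ChREBPβ KO (-0.35 to 0.24). Slc2a3 ranged from 7.50 to 8.75 in the total-line WT and from 7.94 to 8.70 in the KO, with a log2 fold change of 0.06 (-0.29 to 0.40). In the ChREBPβ line Slc2a3 ranged from 7.48 to 8.52 in WT and from 7.56 to 8.03 in KO, with a log2 fold change of -0.08 (-0.46 to 0.31). The last interval holds values as large as the Slc2a4 effect in the same mice.

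The fructose carrier was compared with each glucose carrier inside each array, as the log2 level of Slc2a5 minus that of the glucose carrier. A shift shared by all probes of an array cancels in this difference, whereas scaling that depends on intensity does not. In the total KO this difference was lower than in WT by -9.11 against Slc2a1, -9.07 against Slc2a3 and -8.15 against Slc2a4. All 7 KO arrays lay below all 7 WT arrays in each case (exact two-sided permutation p = 0.000583, the smallest possible, and 0.00117 after Benjamini-Hochberg adjustment over 6 tests).

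In the ChREBPβ KO the same difference was lower than in WT by -1.79 against Slc2a1 (exact permutation p = 0.00253, adjusted 0.00379), with all 5 KO arrays below all 7 WT arrays. It was lower by -1.76 against Slc2a3 (exact p = 0.0126, adjusted 0.0152) and by -1.43 against Slc2a4 (exact p = 0.0177, adjusted 0.0177), with 3 of 5 KO arrays below every WT array in both. Slc2a5 thus fell relative to all 3 glucose carriers in both knockouts, Slc2a4 included. In the WT mice of the total line the Slc2a5 minus Slc2a4 difference had an SD of 0.08, against 0.51 for Slc2a5 minus Slc2a1. This was not so in the WT mice of the ChREBPβ line, where these SDs were 0.54 and 0.57.

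**Figure D3:**
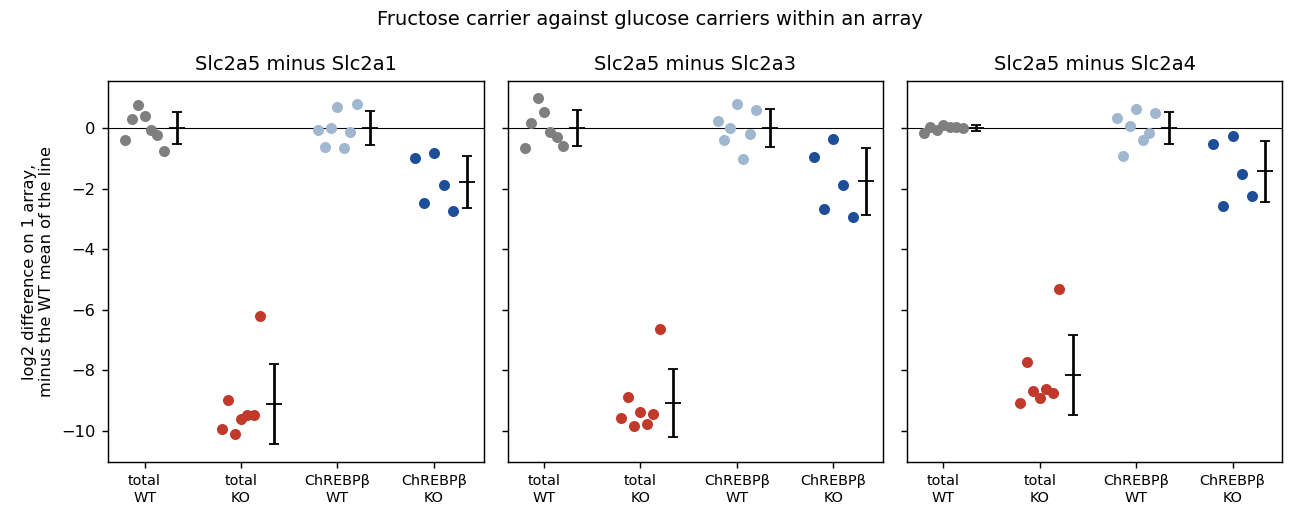
Log2 level of Slc2a5 minus that of Slc2a1, Slc2a3 or Slc2a4 on the same array, shifted so that the WT mean of each line is 0 (y axis), by group (x axis). Points are arrays and bars give the mean and SD. The total-KO arrays lie lowest in all panels and the ChREBPβ-KO means lie at -1.79, -1.76 and -1.43.

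Slc2a13, the myo-inositol carrier, moved the other way. Its log2 level in the total-line WT was 8.32 at the lowest, 8.77 at the median and 9.33 at the highest, and in the total KO 11.10, 11.79 and 11.90. Every KO array lay above every WT array. It rose by 2.91 ± 0.15 on the log2 scale (SE, limma adjusted p = 2.2e-13), and by between 2.22 and 3.26 in the 4 wash batches.

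In the ChREBPβ line Slc2a13 was between 10.51 and 11.05 in WT, with a median of 10.84. The ChREBPβ-KO levels were 11.12, 11.24, 10.33, 11.22 and 11.35 in replicates 1, 2, 4, 5 and 6. All KO arrays but replicate 4 lay above every WT array, and the log2 fold change of 0.26 ± 0.17 (SE, adjusted p = 0.791) did not pass the test. The ChREBPβ effect minus the total effect was -2.65 ± 0.23 (SE, limma adjusted p = 1.43e-08).

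From the lowest, the mean Slc2a13 levels ran from total-line WT (8.78) through ChREBPβ WT (10.79) and ChREBPβ KO (11.05) to total KO (11.70). The WT groups of both lines already differed by 2.01 ± 0.15 (SE, adjusted p = 1.78e-09), with no overlap of arrays, so the total-KO rise is measured from the lowest of the 4 groups. The arrays of both ChREBPβ-line groups overlapped, as did those of the ChREBPβ KO and the total KO.

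Slc2a12, which encodes a carrier related to GLUT4, gave opposite answers with its probes. The dimmer probe was between 6.17 and 6.57 in the total-line WT, with a median of 6.29, and between 7.37 and 8.0 in the total KO, with a median of 7.52. It rose by 1.27 ± 0.09 (SE, limma adjusted p = 1.13e-10) with no overlap.

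The brighter Slc2a12 probe was between 8.66 and 9.09 in the total-line WT and between 8.60 and 8.76 in the total KO. It fell by 0.26 ± 0.06 on the log2 scale (SE, limma adjusted p = 0.000935), with overlapping arrays. This call was lost with lymphocyte and muscle levels as covariates (-0.21, adjusted p = 0.13) and with each slide as a fixed block (-0.29, adjusted p = 0.0522). The changes in the ChREBPβ KO were 0.08 (95% interval -0.14 to 0.29) and 0.07 (-0.07 to 0.20). The sign of the Slc2a12 change in the total KO thus depended on the probe, and a further Slc2a12 probe was well above background on no array.

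Slc2a10 was dim, well above background on all 26 arrays and found by the scanner on 22 of them. Its log2 level was between 6.23 and 6.63 in the total-line WT and 6.48 and 7.01 in the total KO, a rise of 0.30 ± 0.09 (SE, limma adjusted p = 0.00526). In the ChREBPβ line it was between 7.26 and 7.69 in WT and 7.66 and 7.91 in KO, a change of 0.32 ± 0.09 (SE, adjusted p = 0.305, unadjusted p = 0.002). The changes in both knockouts were of like size, with a difference of 0.02 and a 95% interval of -0.24 to 0.28. The call in the total KO was lost with each slide as a fixed block (0.39 ± 0.16, SE, adjusted p = 0.1) and with lymphocyte and muscle levels as covariates (0.09 ± 0.12, SE, adjusted p = 0.656).

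Slc2a6, known from macrophages and other leukocytes, had a log2 level with its brighter probe of 8.73 to 10.30 in the total-line WT, with a median of 9.48, and of 6.84 to 8.51 in the total KO, with a median of 7.73. It fell by 1.78 ± 0.39 on the log2 scale (SE, limma adjusted p = 0.000611). In the ChREBPβ line its levels were scattered, from 7.11 to 9.57 in WT and from 6.92 to 9.22 in KO, and the log2 fold change between them was -0.20 (SE 0.43, adjusted p = 0.974). The dimmer Slc2a6 probe changed by -0.06 in the total KO (95% interval -0.27 to 0.15), so the fall was seen with only 1 of its probes.

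Lymphocyte markers moved with Slc2a6. Of 14 lymphocyte genes, all well above background on every array, 14 were called lower in the total KO, against 20.2% of all genes. Their median log2 fold change was -2.43. Their mean level was 11.06 to 12.67 in the total-line WT, 7.98 to 11.35 in the total KO, 7.45 to 8.48 in the ChREBPβ WT and 7.43 to 9.03 in the ChREBPβ KO. Within the total KO, the arrays with the highest lymphocyte levels (replicates 2, 3, 5 and 8, at 10.50 to 11.35) were also those with the highest Slc2a6 levels. With lymphocyte and muscle levels as covariates the Slc2a6 effect was -1.08 ± 0.49 (SE, adjusted p = 0.148).

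The high Slc2a6 arrays of the ChREBPβ line stood out in another list. WT replicates 3 and 6 and KO replicate 4, at Slc2a6 levels of 9.57, 8.85 and 9.22, had mean levels of 8 macrophage genes of 13.05, 13.11 and 13.39, the highest of all 26 arrays. Their lymphocyte levels were 7.99, 8.48 and 7.78. The part of either cell type in the Slc2a6 values was not tested beyond the covariate fit.

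**Figure D4:**
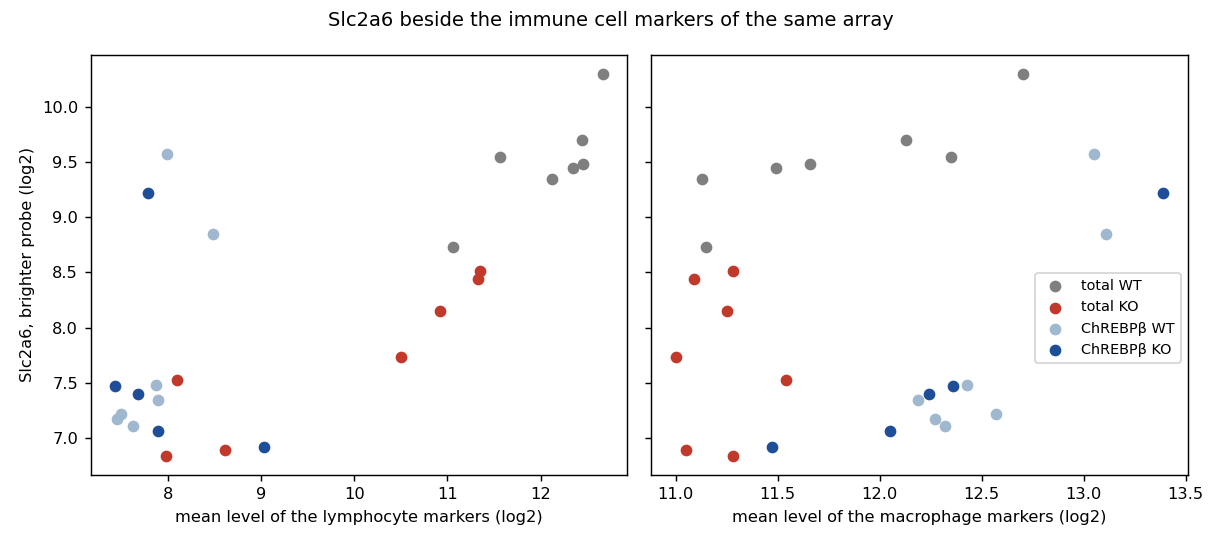
Log2 level of the brighter Slc2a6 probe (y axis) against the mean log2 level of 14 lymphocyte markers (left) and 8 macrophage markers (right) on the same array (x axes), 26 arrays coloured by group. The total-line WT arrays lie at the highest lymphocyte levels, 11.06 to 12.67, and 3 ChREBPβ-line arrays with Slc2a6 levels of 8.85 to 9.57 lie at the highest macrophage levels.

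With the same covariates, 3 of the 6 genes called in the total KO were called, namely Slc2a5, Slc2a4 and Slc2a13. With lymphocyte and muscle levels in the model, the total-KO effect was -8.28 for Slc2a5 (adjusted p = 9.4e-10), -1.02 for Slc2a4 (adjusted p = 2.62e-07) and 2.81 for Slc2a13 (adjusted p = 9.62e-09). The dimmer Slc2a12 probe was at 1.11 (adjusted p = 1.82e-06), whereas the calls of Slc2a10, Slc2a6 and the brighter Slc2a12 probe were lost. Muscle markers varied within every group, with mean levels from 6.71 to 12.05 in the total-line WT, 6.75 to 13.36 in the total KO, 6.66 to 12.27 in the ChREBPβ WT and 7.07 to 12.90 in the ChREBPβ KO, and muscle also expresses Slc2a4.

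Slc2a8, an intracellular hexose carrier, had log2 levels of 6.64 to 7.35 in the total-line WT and 6.81 to 7.55 in the KO, a change of 0.27 ± 0.12 (SE, adjusted p = 0.0786). It passed the test without replicate 4 of the WT (adjusted p = 0.0177) or replicate 8 of the KO (adjusted p = 0.0359). It was 6.63 to 7.47 in the ChREBPβ WT and 6.97 to 7.26 in the KO, a change of 0.10 (95% interval -0.19 to 0.38). The urate carrier Slc2a9 changed by 0.08 (-0.15 to 0.31) and -0.06 (-0.31 to 0.19). The groups of both genes overlapped in both lines.

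The WT mice of both lines were compared because each knockout is read against its own. Between them 5 of the 10 genes passed the test. Slc2a13 and Slc2a10 were higher in the ChREBPβ-line WT, by 2.01 and by 1.01 ± 0.09 (SE, adjusted p = 4.96e-09), against 26.1% of all genes called higher. Slc2a6, the brighter probe of Slc2a12 and Slc2a1 were lower, by -1.69 ± 0.39 (SE, adjusted p = 0.000967), -0.22 ± 0.06 (SE, adjusted p = 0.00361) and -0.32 ± 0.13 (SE, adjusted p = 0.046), against 19.7% of all genes called lower. The dimmer Slc2a12 probe went the other way, higher by 0.63 ± 0.09 (SE, limma adjusted p = 6.98e-06) with no overlap of arrays. With lymphocyte and muscle levels as covariates, Slc2a13 and Slc2a10 alone were called among the 10 genes by their brightest probe. Slc2a5 differed by -0.79 ± 0.43 (SE, adjusted p = 0.143) between the WT groups, or at an adjusted p of 0.00461 when the WT arrays were fitted alone and 0.0309 without replicate 8 of the total KO. The Slc2a1 call was lost when any 1 of 13 of the 26 arrays was left out. Mouse line and lymphocyte level cannot be told apart here.

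The label check gave lower Mlxipl levels in each KO than in its WT, although not with every Mlxipl probe. With the brightest Mlxipl probe, log2 levels were 15.77 to 16.53 and 13.63 to 13.95 in total-line WT and KO, and 15.24 to 16.18 and 13.93 to 14.36 in ChREBPβ-line WT and KO. A second Mlxipl probe overlapped between KO and WT in both lines, at 11.41 to 11.90 over all 26 arrays. Whether either probe lies inside either deletion was not determined.

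Of 18 genes that carry GLUT4 to the cell surface, 10 were called higher and 1 lower in the total KO, against 25.7% and 20.2% of all genes, with a median log2 fold change of 0.24 against 0.05 over all genes. Among them Lrp1 rose by 0.80 ± 0.07 and Sort1 by 0.76 ± 0.08 on the log2 scale (SE), which encode a cargo receptor of GLUT4 vesicles and the sorting receptor sortilin. Tbc1d1, a Rab GTPase-activating protein that restrains GLUT4 vesicles, fell by 0.34 ± 0.11 on the log2 scale (SE, limma adjusted p = 0.0143). Of the 18, 0 were called in the ChREBPβ KO, with a median of 0.06. The WT groups differed in the same list, with 9 called higher and 2 lower in the ChREBPβ-line WT, against 26.1% and 19.7% of all genes.

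Of 15 genes of the next step, in which the hexose is trapped in the cell, 5 were called higher and 3 lower in the total KO, against 25.7% and 20.2% of all genes, with a median of -0.01. Hk2, the insulin-responsive hexokinase, fell by 1.88 ± 0.11 on the log2 scale (SE, limma adjusted p = 1.54e-12) in the total KO and by 0.78 ± 0.12 (SE, adjusted p = 0.00881) in the ChREBPβ KO, where it was the only gene of the list to be called. Hk1 fell by 0.23 ± 0.07 (SE, adjusted p = 0.00607) in the total KO. Khk, the fructose kinase that acts on what Slc2a5 brings in, changed by -0.09 ± 0.16 (SE) and -0.07 ± 0.18 (SE) and was not called. Pfkfb3, Pfkfb1 and Pfkfb4, which encode enzymes that set fructose 2,6-bisphosphate, rose by 1.33 ± 0.12, 0.71 ± 0.10 and 0.68 ± 0.13 (SE) in the total KO. The WT groups differed in the same genes. Compared with the total-line WT, the ChREBPβ-line WT was called higher for Pfkfb3, Pfkfb1 and Pfkfb4, by 1.05, 0.26 and 0.36. It was called lower for Hk2 and Hk1, by -0.53 and -0.27.

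Of 12 further sugar carrier genes 7 were in the table, of which 1 was called higher and 2 lower in the total KO, against 25.7% and 20.2% of all genes. Slc2a7 and Slc5a1, fructose and sodium-glucose carriers of the gut, were well above background on no array. Slc2a2, another GLUT gene, was well above background on 25 arrays. It changed by 0.01 in the total KO and 0.06 in the ChREBPβ KO and was not called. In the total KO Slc45a4 rose by 0.44 ± 0.06, Slc45a3 fell by 0.32 ± 0.08 and Slc50a1 by 0.19 ± 0.08 on the log2 scale (SE). The ChREBPβ-line WT also differed from the total-line WT, by 0.40 for Slc45a4 and -0.50 for Slc45a3, both called. For Slc50a1 this difference was 0.06 and not called. None of the 7 was called in the ChREBPβ KO (0 of 7), with a median log2 fold change of 0.05. Of the arrestins that draw GLUT proteins off the membrane, Arrdc4 rose by 0.53 ± 0.12 in the total KO (SE, limma adjusted p = 0.000961) and Txnip, with a log2 fold change of -0.11, was not called.

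Genes whose level followed Slc2a5 from array to array inside groups were ranked over the 19 arrays of the 3 groups in which Slc2a5 was well above background throughout. The highest correlations of deviations from the group means were with Pth1r (Pearson r = 0.92), Gucd1 (0.91), Mum1l1 (0.87), Tuba8 (0.84) and 6430571L13Rik (0.84), out of 26091 genes. Between Slc2a5 and the other 9 Slc2a genes this r lay between -0.40 for Slc2a10 and 0.35 for Slc2a9. Arrays share their RNA extract and hybridization, and the values are a description.

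For Slc2a4, over all 26 arrays, the named genes with the highest r among its top 5 were Mterf4 (0.87), Mtch2 (0.86) and Hdhd2 (0.86), and the remaining 2 were transcripts without a gene symbol. Within groups Slc2a4 ran with Slc2a8 (r = 0.62) and Slc2a9 (0.51) and against Slc2a1 (-0.56) and Slc2a6 (-0.54). Its r with Slc2a5 was 0.08.

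Promoter windows of 300 bases from RefSeq (GRCm38.p6) were at hand for 8 of the 10 genes, but not for Slc2a3 and Slc2a4. The Slc2a5 window is shown because that gene had the largest change. Its 250 bases upstream of the start, chr4:150119094-150119343 on the plus strand, read as follows:

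Slc2a5 upstream: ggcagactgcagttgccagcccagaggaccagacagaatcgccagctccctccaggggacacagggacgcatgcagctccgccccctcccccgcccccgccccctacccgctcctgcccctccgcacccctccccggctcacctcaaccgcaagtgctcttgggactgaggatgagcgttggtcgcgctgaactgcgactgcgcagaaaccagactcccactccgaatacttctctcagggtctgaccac

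The E-box letters CACGTG, searched on both strands, were in 0 of the 8 Slc2a windows and in 7.15% of 32851 windows of the reference. A pair of looser E-boxes, each CANNTG, with the 5-base spacing of a carbohydrate response element, was in 0 of 8 and in 0.767% of all windows. No letters are therefore in capitals above, which says only that these strings are not in these windows. Response elements whose boxes depart from CANNTG were not searched for.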

How the data were processed

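RNA of 26 mice was labelled with Cy3 and hybridized to 1-colour Agilent SurePrint G3 mouse arrays. Per the file headers and the study's methods, scanner intensity values came from Feature Extraction 10.10.1.1. The authors kept spots called found, positive and well above background on most arrays or in a group, quantile-normalized the median pixel intensity and deposited log2 values. Spot quality calls were taken as deposited.

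The deposited log2 values were fitted with limma 3.58.1 in R 4.3.3 (1 mean per group, all 26 arrays, Benjamini-Hochberg adjustment over 40168 probes, adjusted p of 0.05). A gene counted by its probe of highest mean. Intervals of 95% used the 22 residual degrees of freedom. Single values were tested by exact permutation in scipy. The fit was tested on simulated data. The labels do not tie an array to a litter, and the limma p-values set group differences against the spread between these samples. The number of arrays limits the precision.

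Named were all members, and from each pathway list up to 3 called rises and 3 called falls, of which some are not reported here. The members and lists were chosen with earlier results of these data known. Alternatives were another source of values, other backgrounds and filters, wash batch, slide and replicate blocks, array weights, marker covariates and leaving out each array. Other tissues and arrays of the study were not analysed here.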

Additional observations from a re-analysis of the deposited data

Results flagged for a closer look

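Within groups, 4 of the 52 sets of arrays tested (13 probes in 4 groups) held an array far from the rest by Dixon's criterion, where chance flags about 1 in 20. Slc2a5 in the total ChREBP KO was 7.91 in replicate 8, against 4.22 to 5.50 on the other arrays. Slc2a13 was 11.10 in replicate 2 of the total ChREBP KO, against 11.71 to 11.90, and 10.33 in replicate 4 of the ChREBPβ KO, against 11.12 to 11.35. Slc2a6 was 9.22 in the same replicate 4, against 6.92 to 7.47, and that array had the highest macrophage marker level of all, 13.39.

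The effects of both knockouts differed by limma's test of the difference for 4 genes and 5 probes. The ChREBPβ effect minus the total effect was 7.17 for Slc2a5, 0.46 for the brighter Slc2a4 probe, -2.65 for Slc2a13, 0.33 for the brighter Slc2a12 probe and -1.19 for the dimmer Slc2a12 probe. The knockouts were compared with different WT groups, and the value for each gene holds the difference between these WT groups as well.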

How the results depend on the processing

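The 6 comparisons of the fructose carrier with a glucose carrier kept their direction and their side of the threshold under all 4 other sources of values and without any 1 array. Without 1 array, they lay within -9.60 to -8.95, -9.48 to -8.91 and -8.62 to -7.99 in the total KO and -2.02 to -1.55, -2.11 to -1.47 and -1.72 to -1.14 in the ChREBPβ KO. The other sources moved the total-KO values further, to -11.32, -11.23 and -10.25 with processed signals and -7.92, -7.91 and -7.05 with normexp, against Slc2a1, Slc2a3 and Slc2a4. The count of Slc2a genes called in the total KO was 6, with 6 to 7 when 1 array was left out, and 3 with lymphocyte and muscle levels as covariates. In the ChREBPβ KO the count was 0, with 0 to 1 when 1 array was left out and 2 (Slc2a4 and Slc2a5) with array weights. For the difference between both effects it was 4, with 4 to 5 when 1 array was left out and 2 with slide as a fixed block. Between the WT groups it was 5, with 4 to 6 when 1 array was left out and 2 with the covariates. The cause of these changes was not tested.

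Same-numbered KO and WT arrays deviated with correlations of -0.3565 to 0.5064. Such correlations cannot tell whether the numbers pair the mice, and the labels do not say. With a replicate block the counts were 6, 0, 4 and 5, in the order above, and the Slc2a5 effects were -9.01 and -1.68.

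The sign turned in 25 of 585 values under other alternatives and in 16 of 1352 when 1 array was left out, with none for Slc2a5, Slc2a4 or Slc2a13 in a KO comparison. With slide as a fixed block, Slc2a3 was -0.24 in the total KO, 0.18 in the ChREBPβ KO and 0.43 for the difference, the differences for Slc2a10 and the dimmer Slc2a4 probe were -0.20 and 0.16, and the dimmer Slc2a12 probe and Slc2a6 were -0.08 and 0.10 in the ChREBPβ KO. With the covariates, the WT groups differed by 0.20 for Slc2a1, 0.61 for Slc2a3, 0.80 for Slc2a5 and -0.46 for Slc2a8, the dimmer Slc2a6 probe and Slc2a9 were 0.04 and -0.11 in the total KO, and the differences for Slc2a8 and Slc2a9 were 0.11 and 0.06. With wash batch as a block, Slc2a1, Slc2a3 and Slc2a6 were 0.02, 0.06 and 0.01 in the ChREBPβ KO. The replicate block gave -0.02 for the Slc2a10 difference and 0.0043 for Slc2a6 in the ChREBPβ KO. Slc2a3 in the total KO was -0.01 with processed signals and -0.02 with array weights. For Slc2a4 the WT groups differed by 0.0007 from scanner files, 0.01 with normexp and 0.00021 without a filter. Without 1 array, Slc2a1 ranged from -0.11 to 0.03, Slc2a3 from -0.14 to 0.03 and Slc2a6 from -0.61 to 0.09 in the ChREBPβ KO, the differences for Slc2a10 and the dimmer Slc2a4 probe from -0.02 to 0.06 and -0.17 to 0.04, and the WT comparison of Slc2a9 from -0.13 to 0.03. In the total KO Slc2a3 ranged from -0.07 to 0.14, the dimmer Slc2a6 probe from -0.10 to 0.0035 and Slc2a9 from -0.0046 to 0.16.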
